A study of Mus musculus with 10 samples.

Results

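The collagen gene family was described in 10 mouse melanomas profiled by bulk RNA sequencing. Its members were taken by name, as every gene whose symbol reads Col, a number, a and a number, which gave 44 of the 47643 genes in the deposited tables. They were grouped by the class of their protein. There were 11 fibrillar collagens, 6 basement membrane collagens, 9 FACIT collagens (fibril-associated collagens with interrupted helices), 6 beaded filament collagens, 3 short-chain network collagens, 1 anchoring fibril collagen, 4 transmembrane collagens, 2 multiplexins and 2 others. The 5 tumours labelled Fes KO carried Tyr::CreERT2/+, BRafV600E/+ and Fes-/- among their alleles, and the 5 labelled Fes WT carried the same alleles but with Fes+/+. Both groups thus shared the inducible Cre driven by the tyrosinase promoter, which is active in the melanocyte lineage, and the activated Braf allele. In both, 4OH-Tamoxifen at 5 mM had been put on the back skin. No label gives the animals' age or states that tumours within a group were taken from separate mice, so p-values here reflect the spread between tumours, which may come from fewer mice.

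Total counts ranged from 13226783 to 16599120 per tumour. The targeted gene, Fes, had a mean of 81.3 ± 12.7 in the Fes WT tumours and 38.9 ± 11.5 in the Fes KO tumours (SD, n = 5 each). These levels are in CPM, which scales a gene's reads to a fixed library size, and the groups did not overlap. In the edgeR quasi-likelihood test used below for the collagens, the log2 fold change of Fes (Fes KO minus Fes WT) was -1.06. Its adjusted p was 0.0846, so the targeted gene itself did not pass the threshold of that test. Sox10, a transcription factor of the melanocyte lineage, was at 392 to 970 CPM in the 10 tumours, whereas the melanocyte antigen Mlana was at 0 in Fes KO 5 and reached its highest level, 27.2 CPM, in Fes KO 2. Some tumours stood apart in tissue content. The 13 keratinocyte markers summed to 6172 CPM in Fes KO 2 against 16.9 to 248 CPM in the other tumours, and the 11 skeletal muscle markers summed to 15097 CPM in Fes WT 3 against 3.86 to 1859 CPM elsewhere. Levels of Xist, the RNA that coats the inactive X chromosome, were 670 to 720 CPM in Fes KO 1, Fes KO 2 and Fes WT 5, while the remaining tumours did not exceed 0.678 CPM.

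Collagens are extracellular matrix proteins whose chains wind around each other in a helix built from a repeat of glycine and a pair of other residues, often proline and hydroxyproline. Fibrillar collagens form the rope-like fibrils of dermis, tendon and cartilage, and basement membrane collagens form the sheets under epithelia and around vessels, nerves and muscle fibres. FACIT collagens decorate fibrils, beaded filament collagens form microfibrils near cell surfaces, and transmembrane collagens stay anchored in the plasma membrane. In skin tumours, fibroblasts are the best known source of fibrillar collagen, and vessels, Schwann cells and tumour cells also make collagens.

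The repeat can be read in the genes themselves. In GENCODE M21 gene models, 305 of the 627 inner coding exons of the fibrillar genes (48.6%) were exactly 54 bases long and 83.9% were a multiple of 9 bases, the length that codes for 1 repeat. Across other protein-coding genes the shares were 0.443% and 13.7%. The 6 exons below are 54-base exons of the members that the following results turn on, with the glycine codons that open each repeat in capitals. They were read from GRCm38 for Col1a1 (chr11:94939904-94939957, plus strand), Col1a2 (chr6:4515481-4515534, plus strand), Col3a1 (chr1:45325360-45325413, plus strand), Col2a1 (chr15:97998545-97998598, minus strand), Col11a1 (chr3:114108281-114108334, plus strand) and Col5a3 (chr9:20801068-20801121, minus strand), 5′ to 3′ in the direction of the gene.
Col1a1: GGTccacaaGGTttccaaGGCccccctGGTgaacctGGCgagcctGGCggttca
Col1a2: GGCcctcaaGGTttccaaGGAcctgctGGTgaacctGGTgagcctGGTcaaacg
Col3a1: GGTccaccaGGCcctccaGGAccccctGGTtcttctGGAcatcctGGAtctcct
Col2a1: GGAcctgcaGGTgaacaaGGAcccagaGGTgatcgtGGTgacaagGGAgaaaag
Col11a1: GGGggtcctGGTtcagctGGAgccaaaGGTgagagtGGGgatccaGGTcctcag
Col5a3: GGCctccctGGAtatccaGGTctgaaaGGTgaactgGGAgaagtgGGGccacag
Each exon holds 6 glycine codons in the repeat register. The basement membrane genes did not share this exon length: 4.23% of their inner coding exons were 54 bases long and 47.2% were a multiple of 9. The 3 short-chain genes, Col8a1, Col8a2 and Col10a1, had 2 coding exons each and therefore no inner coding exon. The plot of exon lengths shows each gene by class.

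**Figure D1:**
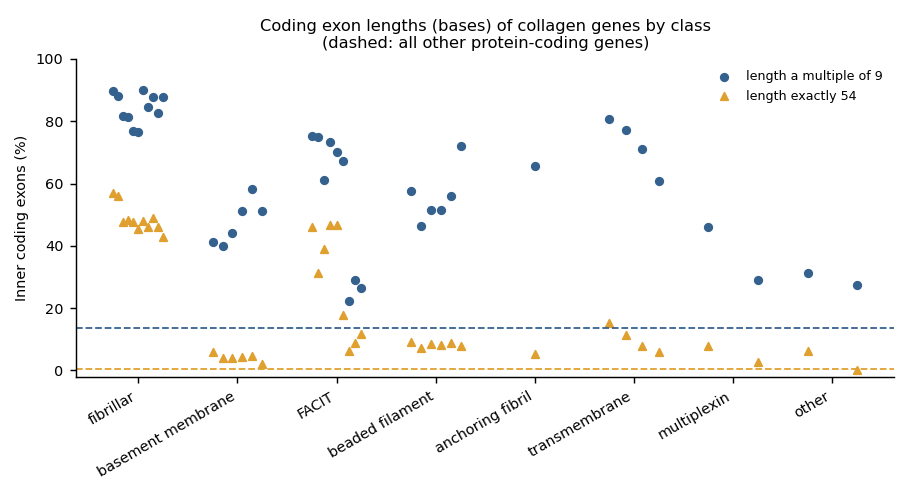
Share of inner coding exons (%) whose length is a multiple of 9 bases (circles) or exactly 54 bases (triangles), with 1 point per collagen gene and classes along the x axis; dashed lines give the shares over all other protein-coding genes, 13.7% and 0.443%. Over all their inner coding exons, 48.6% are 54 bases long in fibrillar genes and 4.23% in basement membrane genes, and every class that has inner coding exons lies above the upper line for multiples of 9.

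Collagen genes took a large part of the counted reads of these tumours, and that part was of similar size in both groups. Longer transcripts give more reads, so this is not their share of messenger RNA molecules. They held 7.11 ± 1.44% of all counts in Fes WT and 7.05 ± 0.83% in Fes KO (SD, n = 5 each). Col3a1 was the most counted of all genes in 8 of 10 tumours. In Fes KO 4 it was Col1a2, and in Fes WT 5 it was Apod, which is no collagen. Col3a1, Col1a2 and Col1a1 together held 45.7% to 60.6% of the collagen counts of a tumour. Fibrillar collagens made up 53.5% to 62.7% of the summed collagen level in Fes WT and 53.2% to 68.1% in Fes KO, followed by basement membrane collagens with 14.1% to 18.7% and 10.8% to 19.8%. The summed level of all 44 genes was lowest in Fes WT 5, at 51785 CPM, and highest in Fes WT 1, at 90793 CPM, so that the whole Fes KO range, 61783 to 83933 CPM, lay inside the Fes WT range. In bulk tissue, fewer cells of a type and less RNA per cell cannot be told apart.

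**Figure D2:**
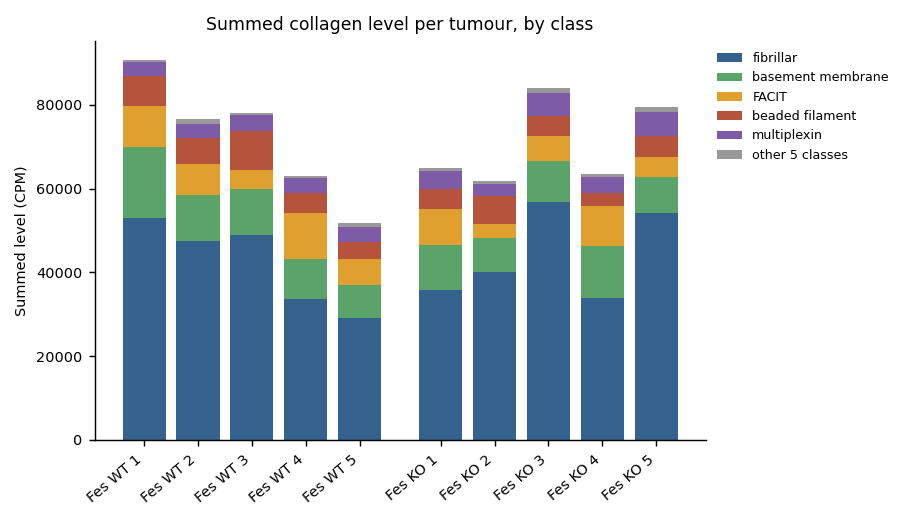
Summed level of collagen genes in each tumour (CPM), stacked by class, with Fes WT tumours on the left and Fes KO tumours on the right. The stacks run from 51785 CPM in Fes WT 5 to 90793 CPM in Fes WT 1, and the Fes KO stacks lie between these.

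Per kilobase of transcript, Col3a1 led the family with a mean of 2851 CPM per kb over the 10 tumours. Col1a2 followed at 2216, Col1a1 at 1733, Col20a1 at 1046, Col4a1 at 872, Col4a2 at 737, Col6a1 at 612 and Col6a2 at 466 CPM per kb. At the other end, Col19a1 had 0 to 3 counts in any tumour. Col9a1 had 1 to 26 counts and Col4a6 had 1 to 109 counts. These 3 were too low for the test, which left 41 members.

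None of the 41 tested members passed an adjusted p of 0.05 in the edgeR quasi-likelihood test of Fes KO against Fes WT. The lowest adjusted p was 0.218, for Col2a1. Over all genes tested, 26 of 14816 passed (0.175%), so the absence of calls among 41 genes is no result about the family. By other tools, limma-voom and limma on the deposited log2 values also called none, where limma-voom called 0.776% of all genes. Log2 fold changes (Fes KO minus Fes WT) were above 0 in 20 members and below 0 in 21, with a median of -0.12 against 0.01 for all genes tested. Of all genes tested, 7760 were above 0 and 7056 below 0. At an unadjusted p below 0.05 there were 11 members (26.8%), against 9.62% of all genes. Of these, 5 were higher in Fes KO (4.23% of all genes were), namely Col2a1, Col8a2, Col9a2, Col11a1 and Col25a1. The other 6 were lower (5.39% of all genes), namely Col4a3, Col4a4, Col5a3, Col6a5, Col22a1 and Col23a1. No tested member separated the groups in all 10 tumours, which 1.90% of all genes did. Genes measured in the same tumours are not independent, so the 11 do not count as separate evidence. By class, the median log2 fold change was 0.13 for fibrillar (8 of 11 above 0), -0.22 for basement membrane (5 of 5 below 0), -0.19 for FACIT (5 of 7 below 0), -0.44 for beaded filament (5 of 6 below 0) and 0.59 for short-chain network collagens (3 of 3 above 0). Macrophage markers also leaned lower in Fes KO. All 9 of that list had a log2 fold change below 0 (median -0.77), 5 of them at an unadjusted p below 0.05 against 5.39% of all genes, and none passed the adjusted threshold. They summed to 1426 to 3371 CPM in Fes WT and 888 to 2103 CPM in Fes KO, and their part in the collagen levels was not tested. Macrophages were not the only list to lean. Tested T cell markers (6 of 6) and skeletal muscle markers (10 of 10) were below 0. Melanocyte markers were above 0 in 7 of 9, with 4 at an unadjusted p below 0.05 against 4.23% of all genes. None of these passed the adjusted threshold.

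Other choices gave calls. DESeq2 called 3 of 41 members, Col2a1 (adjusted p = 6.08e-04), Col4a3 (adjusted p = 0.00575) and Col8a2 (adjusted p = 0.0171), where it called 270 of 14816 genes (1.82%). Without the 3 Xist-expressing tumours, edgeR called Col23a1 (log2 fold change -1.41, adjusted p = 0.0321), where 64 of 15106 genes passed (0.424%). At an unadjusted p below 0.05 there were 7 of 41 members without Fes KO 3, where 6.48% of all genes were below it. In limma-voom there were 18 of 41 members, where 17.7% of all genes were below it.

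**Figure D3:**
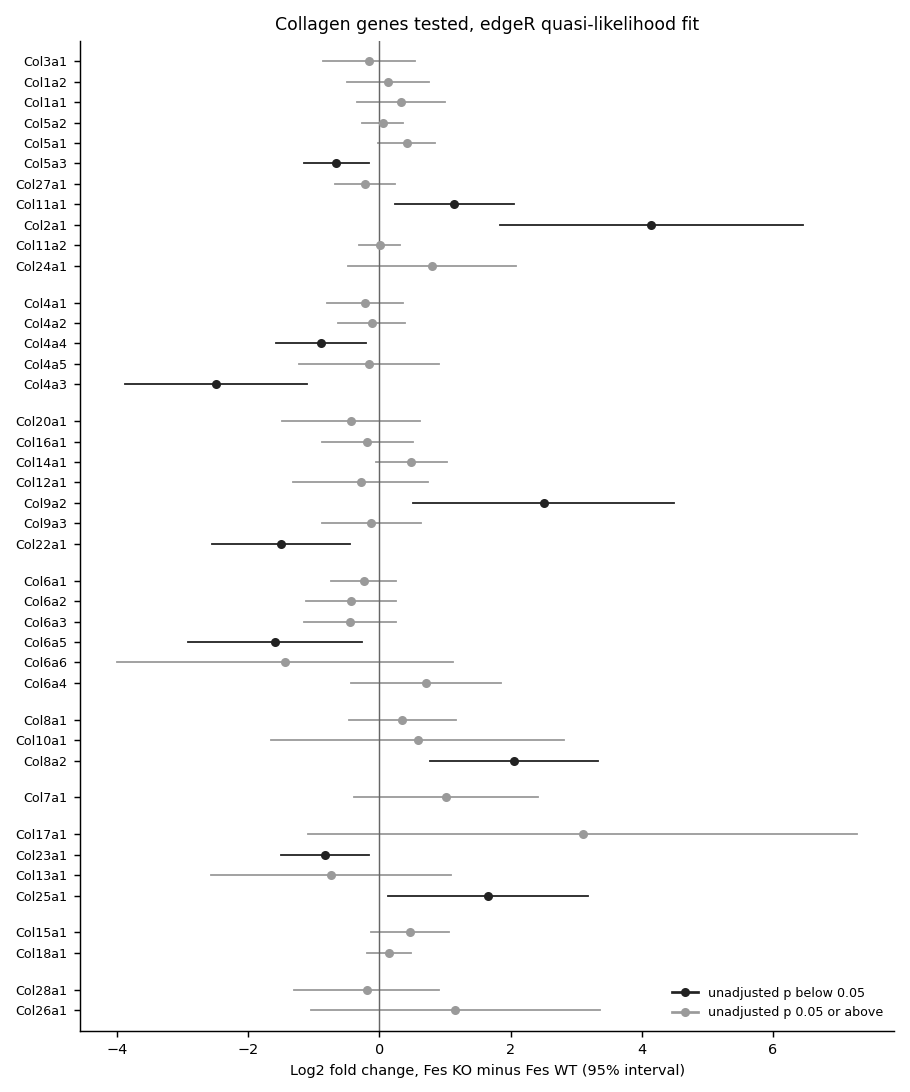
Log2 fold change (Fes KO minus Fes WT, x axis) of each of the 41 tested collagen genes with its 95% interval from the edgeR quasi-likelihood fit, ordered by class from fibrillar at the top. The 11 genes with an unadjusted p below 0.05 are black, and among them Col2a1 (4.15) lies furthest to the right and Col4a3 (-2.49) furthest to the left.

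The abundant fibrillar collagens, which form the bulk of dermal fibrils, did not pass the test. Col3a1 (ENSMUSG00000026043, chromosome 1, 45311538 to 45349706) was at 21923, 17813, 20864, 13095 and 10067 CPM in Fes WT 1 to 5 and at 12431, 16921, 17917, 9462 and 18158 CPM in Fes KO 1 to 5. Both ranges overlapped almost fully, and the log2 fold change was -0.16 (SE 0.32, 95% interval -0.87 to 0.54). Both chains of type I collagen had fold changes above 0. Col1a1 (ENSMUSG00000001506, chromosome 11, 94936224 to 94953042) was at 10892, 11161, 10795, 6244 and 6419 CPM in Fes WT 1 to 5 and at 7931, 8876, 15402, 9719 and 15326 CPM in Fes KO 1 to 5. Fes KO 3 and Fes KO 5 stood above every Fes WT tumour and the other Fes KO tumours lay among them, with a log2 fold change of 0.33 (SE 0.30, 95% interval -0.34 to 1.01). Col1a2 (ENSMUSG00000029661, chromosome 6, 4504814 to 4541544) was at 14054, 13241, 11844, 9516 and 7923 CPM in Fes WT 1 to 5 and at 9438, 9949, 17466, 10326 and 14774 CPM in Fes KO 1 to 5. It was again highest in Fes KO 3 and Fes KO 5, and its log2 fold change was 0.13 (SE 0.28). The fibroblast marker list (15 of 15 measured) summed to 6453 to 11079 CPM in Fes WT and 5186 to 9290 CPM in Fes KO, where it was also highest in Fes KO 3 and Fes KO 5, and its part in these levels was not tested. The mean log2 level of the same 15 markers was instead lowest in Fes KO 3 (4.81 on the log2 CPM scale) and ran from 5.60 to 6.93 in Fes WT.

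Type V collagen chains, which sit inside type I fibrils and limit their width, had fold changes on both sides of 0. Col5a1 was at 1527, 1600, 1702, 1113 and 1173 CPM in Fes WT 1 to 5 and at 1844, 1518, 2428, 1467 and 2250 CPM in Fes KO 1 to 5. Every Fes WT tumour was below Fes KO 1, Fes KO 3 and Fes KO 5, and the log2 fold change was 0.42 (SE 0.20, adjusted p = 0.535). Col5a2 was at 2020, 1736, 1936, 1874 and 1826 CPM in Fes WT 1 to 5 and at 2114, 1648, 2200, 1609 and 2131 CPM in Fes KO 1 to 5. Its groups had nearly the same mean, 1879 ± 108 CPM for Fes WT and 1941 ± 287 CPM for Fes KO, with a log2 fold change of 0.05 (SE 0.14). Col5a3 (ENSMUSG00000004098, chromosome 9, 20770050 to 20815067), the least widespread chain of type V, was at 2176, 1625, 1475, 1606 and 1255 CPM in Fes WT 1 to 5 and at 1580, 964, 745, 886 and 974 CPM in Fes KO 1 to 5. Fes KO 1 reached the level of Fes WT tumours and the other 4 Fes KO tumours lay below all of them, and the log2 fold change was -0.66 (SE 0.22, unadjusted p = 0.0141, adjusted p = 0.386).

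Among the low fibrillar genes, Col2a1 and Col11a1 had their highest levels in Fes KO 3 and Fes KO 5, and neither passed the test. Col2a1 (ENSMUSG00000022483, chromosome 15, 97975602 to 98004695), the main fibrillar collagen of cartilage, was at 0.196, 6.30, 0.919, 1.53 and 3.13 CPM in Fes WT 1 to 5 and at 31.6, 10.8, 91.3, 2.94 and 77.4 CPM in Fes KO 1 to 5. All Fes KO tumours but Fes KO 4 exceeded the highest Fes WT tumour, and the log2 fold change of 4.15 (SE 1.04, 95% interval 1.83 to 6.46) was the largest in the family, with an unadjusted p of 0.00248 and an adjusted p of 0.218. Between 3 and 1482 reads lay behind these values. Col11a1, which copolymerises with type II collagen and was named after its value was seen, was at 53.3, 96.9, 48.1, 39.5 and 78.6 CPM in Fes WT 1 to 5 and at 82.8, 65.1, 274, 98.8 and 178 CPM in Fes KO 1 to 5. It was highest in Fes KO 3 and Fes KO 5, and its log2 fold change was 1.14 (SE 0.41, adjusted p = 0.416). Its partner Col11a2 was level, at 7.87 to 12.0 CPM in every tumour, with a log2 fold change of 0.00 (SE 0.14). The remaining fibrillar genes were Col27a1, at 189 to 408 CPM (log2 fold change -0.21), and Col24a1, at 1.18 to 11.1 CPM (0.80), neither at an unadjusted p below 0.05.

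Type IX collagen, a FACIT collagen that coats type II fibrils, had Fes KO 3 and Fes KO 5 as its highest tumours for Col9a2 and Col9a1 but not for Col9a3. Col9a2 (ENSMUSG00000028626, chromosome 4, 121039385 to 121055322) was at 12.7, 35.3, 3.08, 16.6 and 18.0 CPM in Fes WT 1 to 5 and at 38.0, 20.3, 213, 10.9 and 206 CPM in Fes KO 1 to 5. Fes KO 3 and Fes KO 5 lay above all others by a wide margin, Fes KO 2 and Fes KO 4 lay among the Fes WT tumours, and the log2 fold change was 2.51 (SE 0.90, adjusted p = 0.416). Col9a3 was at 15.9 to 58.3 CPM and had a log2 fold change of -0.12 (SE 0.34). Col9a1, too low for the test, was at 0.0636 to 1.82 CPM and highest in Fes KO 5 and Fes KO 3. The chondrocyte list had 7 of 8 markers measured, and its sum was 36.6 to 246 CPM in Fes WT and 111 to 419 CPM in Fes KO. The sum was highest in Fes KO 5 (419 CPM) and Fes KO 3 (333 CPM), and nearly all of it came from Sox9 and Hapln1. The mean log2 level of the list was instead highest in Fes KO 2 (0.92 on the log2 CPM scale). The other measured markers were low, with Acan at no more than 1.62 CPM, Comp at 1.25, Chad at 0.686, Matn1 at 0.261 and Matn3 at 0.123 CPM in any tumour. The part of the list in the collagen levels was not tested. Sox9 was at 26.6, 26.0, 14.9, 26.9 and 23.3 CPM in Fes WT 1 to 5 and at 29.3, 82.6, 49.5, 21.2 and 62.9 CPM in Fes KO 1 to 5, with an adjusted p of 0.359 for its log2 fold change of 1.06.

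**Figure D4:**
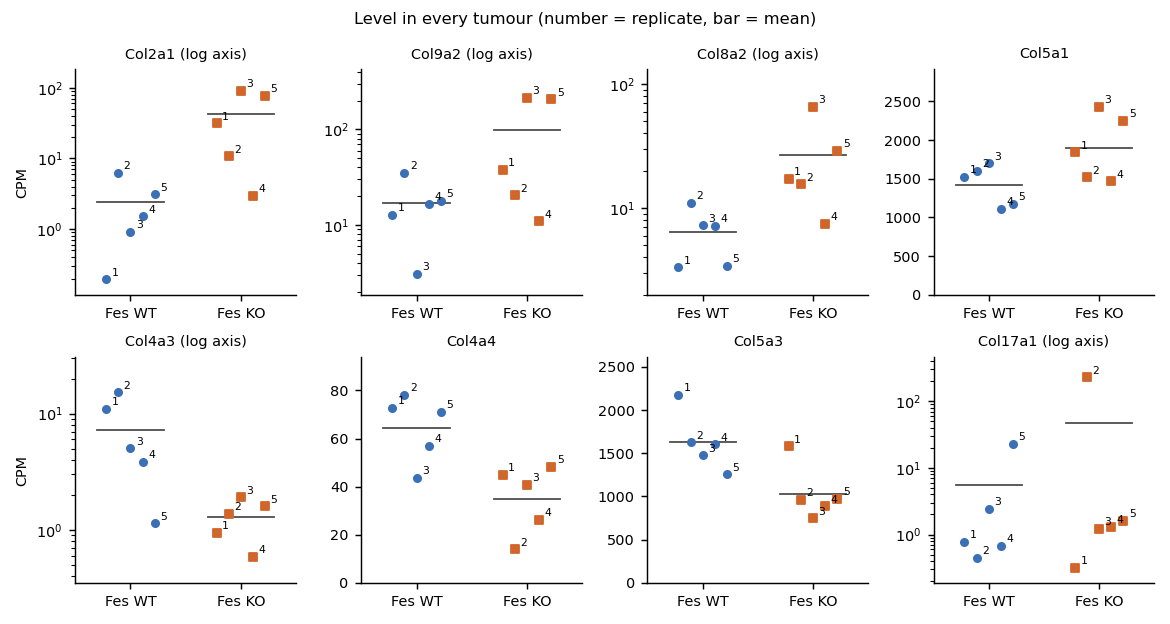
Levels in CPM of 8 collagen genes in each tumour, Fes WT as circles and Fes KO as squares, numbered by replicate, with a bar at the group mean; panels marked so have a log axis. In the upper panels Fes KO 3 and Fes KO 5 are the highest tumours, and in the lower panels Col4a3, Col4a4 and Col5a3 are lower in most Fes KO tumours while Col17a1 is set by Fes KO 2.

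In 12 of the 41 tested members (29.3%), Fes KO 3 and Fes KO 5 were the highest tumours of all 10, which held for 5.95% of all genes. These tumours were picked out after their values were seen. The 12 were Col1a1, Col1a2, Col2a1, Col5a1, Col5a2, Col8a2, Col9a2, Col11a1, Col15a1, Col24a1, Col25a1 and Col26a1, of which 7 are fibrillar. The next most frequent pair, Fes WT 1 and Fes WT 3, led in 4 members (9.76%), against 2.09% of all genes. A share above that of all genes was thus not particular to Fes KO 3 and Fes KO 5. When Fes KO 3 and Fes KO 5 were both left out, 3 of 41 members had an unadjusted p below 0.05, against 6.20% of all genes. The 3 were Col2a1, Col4a3 and Col4a4. The lowest adjusted p was then 0.706. Leaving out tumours chosen for high values lowers the Fes KO means by construction. It turned the log2 fold changes of Col1a1 (-0.045), Col1a2 (-0.20), Col5a2 (-0.073), Col8a1 (-0.087), Col10a1 (-0.24), Col15a1 (-0.060) and Col26a1 (-0.073) below 0 and that of Col16a1 (0.030) above 0.

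Basement membrane collagens were lower in Fes KO in 5 of 5 tested members by sign, as were 7056 of all 14816 genes tested. Of the 5, 2 had an unadjusted p below 0.05, and 5.39% of all genes were lower at that level. The class median log2 fold change was -0.22. The signs of Col4a1, Col4a2 and Col4a5 each turned when 1 tumour was left out. The ubiquitous chains Col4a1 and Col4a2, which assemble into the common type IV network, were abundant and did not pass the test. Col4a1 was at 9701, 5973, 6408, 5009 and 3908 CPM in Fes WT 1 to 5 and at 5793, 4821, 5110, 6575 and 4396 CPM in Fes KO 1 to 5. Fes WT 1 was highest and the other tumours overlapped, with a log2 fold change of -0.22 (SE 0.26), which became 0.0033 without Fes WT 1. Col4a2 was at 7153, 4771, 4553, 4302 and 3968 CPM in Fes WT 1 to 5 and at 4781, 3300, 4620, 5967 and 4126 CPM in Fes KO 1 to 5. Fes WT 1 was again the highest tumour, and the log2 fold change was -0.12 (SE 0.23), or 0.050 without Fes WT 1.

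The chains of specialised basement membranes were far lower per kilobase, 0.136 to 4.91 CPM per kb. Col4a3 (ENSMUSG00000079465, chromosome 1, 82586921 to 82722059), known from the kidney glomerulus, lung and ear, was at 11.0, 15.2, 5.05, 3.84 and 1.14 CPM in Fes WT 1 to 5 and at 0.946, 1.37, 1.91, 0.588 and 1.60 CPM in Fes KO 1 to 5. Fes WT 5 lay among the Fes KO tumours and the other 4 Fes WT tumours lay above all of them, with a log2 fold change of -2.49 (SE 0.63, 95% interval -3.89 to -1.10, unadjusted p = 0.0025, adjusted p = 0.218). Its counts ran from 9 to 239 per tumour, and its exons overlap 563 bases of C430014B12Rik on the opposite strand. The strand setting of the counting is not given in the sources used here, so reads within that stretch cannot be assigned to 1 of these 2 genes, whereas the rest of the 8554-base transcript is not shared with it. Col4a4 (ENSMUSG00000067158, chromosome 1, 82448423 to 82586849), which assembles with Col4a3, was at 72.7, 78.2, 43.6, 56.9 and 71.2 CPM in Fes WT 1 to 5 and at 44.9, 13.8, 40.7, 26.1 and 48.2 CPM in Fes KO 1 to 5. Of the Fes WT tumours, Fes WT 3 lay within the Fes KO range, and the log2 fold change was -0.89 (SE 0.31, adjusted p = 0.407). Col4a5, on the X chromosome and the partner of both in those membranes, was at 8.56, 20.6, 12.8, 23.0 and 3.35 CPM in Fes WT 1 to 5 and at 11.5, 19.8, 12.6, 5.62 and 11.8 CPM in Fes KO 1 to 5. It showed no common direction, with a log2 fold change of -0.16 (SE 0.48) that was 0.12 without Fes WT 4. Col4a6, the other X-linked chain, was at 0.261, 0.0636, 0.459, 0.549 and 0.381 CPM in Fes WT 1 to 5 and at 0.189, 6.80, 0.123, 0.0654 and 0.146 CPM in Fes KO 1 to 5. Only Fes KO 2, the tumour rich in keratinocyte markers, held more than 0.549 CPM, and Col4a6 was not tested.

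The type IV genes lie in head-to-head pairs, and the start sites of Col4a1 and Col4a2 are 21 bases apart on opposite strands of chromosome 8, those of Col4a4 and Col4a3 72 bases apart on chromosome 1 and those of Col4a6 and Col4a5 1309 bases apart on chromosome X. The log2 count ratio of Col4a1 to Col4a2 stayed between -0.02 and 0.55 in all 10 tumours, with an SD of 0.19, smaller than the SD of each gene's own log2 level, 0.37 and 0.31. The ratio of Col4a3 to Col4a4 ran from -5.91 to -2.36 (SD 1.26), and its mean was 1.11 lower in Fes KO, with overlapping groups. The windows from 250 bases before to 50 bases after the start are shown for 1 gene of each of these pairs, since each window spans the start sites of both genes, with matches to the CCAAT box (CCAAT) and GC box (GGGCGG), on either strand, in capitals. They are from RefSeq on GRCm38.p6, Col4a2 at chr8:11312555-11312854 on the plus strand and Col4a4 at chr1:82586800-82587099 on the minus strand.
Col4a2: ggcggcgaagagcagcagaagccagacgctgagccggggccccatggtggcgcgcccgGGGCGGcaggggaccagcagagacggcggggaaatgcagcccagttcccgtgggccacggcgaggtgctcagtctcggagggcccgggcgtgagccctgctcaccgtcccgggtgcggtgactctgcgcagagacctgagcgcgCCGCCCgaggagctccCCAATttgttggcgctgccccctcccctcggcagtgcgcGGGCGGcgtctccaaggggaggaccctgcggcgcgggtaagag
Col4a4: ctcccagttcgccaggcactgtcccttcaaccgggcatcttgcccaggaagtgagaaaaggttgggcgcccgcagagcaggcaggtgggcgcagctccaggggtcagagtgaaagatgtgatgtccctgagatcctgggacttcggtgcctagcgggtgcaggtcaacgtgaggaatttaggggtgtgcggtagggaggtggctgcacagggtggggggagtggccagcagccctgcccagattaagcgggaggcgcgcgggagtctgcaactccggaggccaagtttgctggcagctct
The window of Col4a2 held 1 CCAAT box and 3 GC boxes. The window of Col4a4 held neither. Of the 44 members, 35 had a window in the RefSeq table, Col1a1 and Col2a1 not among them. GC boxes were in 22 of these 35 (62.9%) against 35.7% of all 32851 windows, CCAAT boxes in 34.3% against 37.4%, and TATA boxes (TATAAA) in 14.3% against 13.6%. The collagen shares use 1 window per gene, whereas the comparison uses every window, so the sets are unlike. The windows of Col4a1 and Col4a2 overlap, so a match in the shared stretch counts for both. Both strands were searched, and a match to 1 motif may overlap a match to another. A match describes the letters of a window and not the binding of a factor.

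FACIT collagens were led by Col20a1, which ranked just after the type I chains in level per kilobase. Col20a1 (ENSMUSG00000016356, chromosome 2, 180986535 to 181018363) was at 7425, 5374, 2437, 8459 and 3307 CPM in Fes WT 1 to 5 and at 5698, 1290, 3569, 6632 and 2785 CPM in Fes KO 1 to 5. It was lowest in Fes KO 2 and Fes WT 3, spread widely in both groups, and had a log2 fold change of -0.43 (SE 0.48). The Schwann cell marker list (9 of 9 measured, none at 0) summed to 2494 to 4488 CPM in Fes WT and 1734 to 4675 CPM in Fes KO, and was also lowest in Fes KO 2 (1734) and Fes WT 3 (2494). The part of that in the level of Col20a1 was not tested. Col16a1, a minor component of skin and cartilage fibrils, was at 1211, 1209, 965, 1950 and 2045 CPM in Fes WT 1 to 5 and at 1946, 805, 999, 1778 and 951 CPM in Fes KO 1 to 5. Both groups covered the same range, with a log2 fold change of -0.19 (SE 0.31). Col22a1, known from tissue junctions such as that of muscle and tendon, was at 0.653, 1.15, 2.95, 2.93 and 0.838 CPM in Fes WT 1 to 5 and at 0.504, 0.748, 0.37, 0.785 and 0.583 CPM in Fes KO 1 to 5, on 6 to 48 counts per tumour. Fes WT 3 and Fes WT 4 were well above the rest, and the log2 fold change was -1.50 (SE 0.47, unadjusted p = 0.00973, adjusted p = 0.345). Col14a1 at 322 to 957 CPM (log2 fold change 0.49) and Col12a1 at 115 to 533 CPM (-0.29), which both bind fibril surfaces, did not reach an unadjusted p of 0.05.

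Type VI collagen, whose chains form beaded microfibrils around cells, was lower in Fes KO by sign in 5 of 6 members, with a class median of -0.44. Of all 14816 genes tested, 7056 were lower by sign. Col6a1 was at 3098, 2729, 3625, 2361 and 1758 CPM in Fes WT 1 to 5 and at 2383, 2700, 2421, 1584 and 2412 CPM in Fes KO 1 to 5. Fes WT 3 was highest and Fes KO 4 lowest, with a log2 fold change of -0.24 (SE 0.22). Col6a2 was at 2452, 2256, 3122, 1540 and 1207 CPM in Fes WT 1 to 5 and at 1524, 2311, 1555, 832 and 1600 CPM in Fes KO 1 to 5. It had the same highest and lowest tumours and a log2 fold change of -0.44 (SE 0.31). Col6a3, at 729 to 2404 CPM, followed them with -0.45 (SE 0.32). Col6a5, named after its value was seen, was at 43.7, 37.7, 76.1, 51.7 and 8.99 CPM in Fes WT 1 to 5 and at 10.6, 16.7, 7.33, 32.8 and 5.10 CPM in Fes KO 1 to 5. Fes WT 5 lay among the Fes KO tumours and the other 4 Fes WT tumours lay above all of them, and the log2 fold change was -1.59 (SE 0.60, adjusted p = 0.433). Col6a6 ranged from 0.431 to 71.9 CPM (-1.44, SE 1.15) and Col6a4 from 0.196 to 1.45 CPM (0.72, SE 0.52). Fes WT 3 was the highest tumour in 5 of these 6 genes. It was also the tumour with the highest skeletal muscle marker sum (15097 CPM). Its mean level of the 15 fibroblast markers was the highest too (6.93 on the log2 CPM scale, against 4.81 to 6.86 in the others). By the summed level of the same 15 markers, however, Fes WT 3 was the lowest Fes WT tumour, at 6453 CPM. The part of either list was not tested.

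All 3 short-chain network collagens were higher in Fes KO by sign, as were 7760 of all 14816 genes tested. Of the 3, 1 had an unadjusted p below 0.05, and 4.23% of all genes were higher at that level. Col8a2 (ENSMUSG00000056174, chromosome 4, 126286793 to 126314330), a chain of type VIII collagen found in the cornea and vessel walls, was at 3.33, 11.1, 7.28, 7.20 and 3.43 CPM in Fes WT 1 to 5 and at 17.1, 15.6, 65.6, 7.45 and 29.1 CPM in Fes KO 1 to 5. Fes KO 4 lay among the Fes WT tumours and the other 4 lay above them, with a log2 fold change of 2.06 (SE 0.58, unadjusted p = 0.00492, adjusted p = 0.304). Its partner Col8a1 was at 269, 511, 183, 204 and 328 CPM in Fes WT 1 to 5 and at 357, 151, 497, 339 and 555 CPM in Fes KO 1 to 5. The groups overlapped throughout, and the log2 fold change was 0.35 (SE 0.37). The log2 count ratio of Col8a1 to Col8a2 was accordingly 5.57 ± 0.86 in Fes WT and 4.07 ± 1.02 in Fes KO (SD, n = 5 each). Col10a1, the collagen of hypertrophic cartilage, was at 0.588, 6.24, 4.46, 2.87 and 60.0 CPM in Fes WT 1 to 5 and at 15.1, 9.67, 25.9, 12.6 and 47.7 CPM in Fes KO 1 to 5. Fes WT 5 was the highest of all and the other 4 Fes WT tumours lay below every Fes KO tumour, which gave a log2 fold change of 0.59 (SE 1.01), or 2.65 without Fes WT 5.

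Collagens of the junction between epidermis and dermis were read beside the keratinocyte markers. Col17a1, the hemidesmosome collagen of basal keratinocytes, was at 0.784, 0.446, 2.43, 0.671 and 23.1 CPM in Fes WT 1 to 5 and at 0.315, 228, 1.23, 1.31 and 1.60 CPM in Fes KO 1 to 5. Its log2 fold change was 3.10 (SE 1.89, adjusted p = 0.62), which rested on Fes KO 2 and was -2.30 (adjusted p = 0.502) without that tumour. The keratinocyte marker list (13 of 13 measured) summed to 248 CPM in Fes WT 5 and to 6172 CPM in Fes KO 2, the tumours with the highest Col17a1 in each group. Col7a1, which builds the anchoring fibrils under the epidermis, was at 9.80, 31.6, 16.4, 8.36 and 82.9 CPM in Fes WT 1 to 5 and at 28.1, 74.7, 44.6, 47.5 and 106 CPM in Fes KO 1 to 5. It was not highest in Fes KO 2 but in Fes KO 5 and Fes WT 5, and its log2 fold change was 1.01 (SE 0.63, adjusted p = 0.63).

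The other transmembrane collagens were low. Col23a1 was at 34.5, 22.1, 29.1, 31.4 and 20.0 CPM in Fes WT 1 to 5 and at 14.8, 28.9, 12.4, 9.87 and 10.7 CPM in Fes KO 1 to 5. Apart from Fes KO 2, each Fes KO tumour lay below every Fes WT tumour, and the log2 fold change was -0.84 (SE 0.30, adjusted p = 0.417), or -1.21 (adjusted p = 0.0562) without Fes KO 2. Col25a1, known from neurons and named after its value was seen, was at 0.196 to 1.85 CPM in Fes WT and 0.785 to 5.73 CPM in Fes KO, and its log2 fold change was 1.65 (SE 0.69, adjusted p = 0.494). Col13a1, known from the neuromuscular junction, was at 2.02 to 35.1 CPM and highest in Fes WT 5 (-0.74, SE 0.82).

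The multiplexins, collagens that carry sugar chains and release endostatin-like fragments, were abundant in every tumour. Col15a1 was at 1671, 1657, 1922, 1473 and 1697 CPM in Fes WT 1 to 5 and at 1863, 1389, 3197, 1603 and 3561 CPM in Fes KO 1 to 5. Fes KO 3 and Fes KO 5 stood above the other 8 tumours, which were close to each other, and the log2 fold change was 0.46 (SE 0.27). Col18a1 was at 1781, 1670, 1970, 2098 and 1914 CPM in Fes WT 1 to 5 and at 2408, 1516, 2105, 2280 and 2130 CPM in Fes KO 1 to 5. Its level was among the steadiest of the family, with a log2 fold change of 0.15 (SE 0.15, 95% interval -0.20 to 0.49). The last members were Col26a1 and Col28a1, the latter known from peripheral nerve. Col26a1 was at 3.98, 200, 5.25, 58.2 and 51.3 CPM in Fes WT 1 to 5 and at 70.2, 30.1, 253, 83.0 and 277 CPM in Fes KO 1 to 5, and its log2 fold change was 1.16 (SE 0.99). Col28a1 was at 124, 329, 166, 249 and 328 CPM in Fes WT 1 to 5 and at 239, 35.5, 283, 161 and 327 CPM in Fes KO 1 to 5. It was lowest in Fes KO 2 and had a log2 fold change of -0.19 (SE 0.50), or 0.060 without that tumour.

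**Figure D5:**
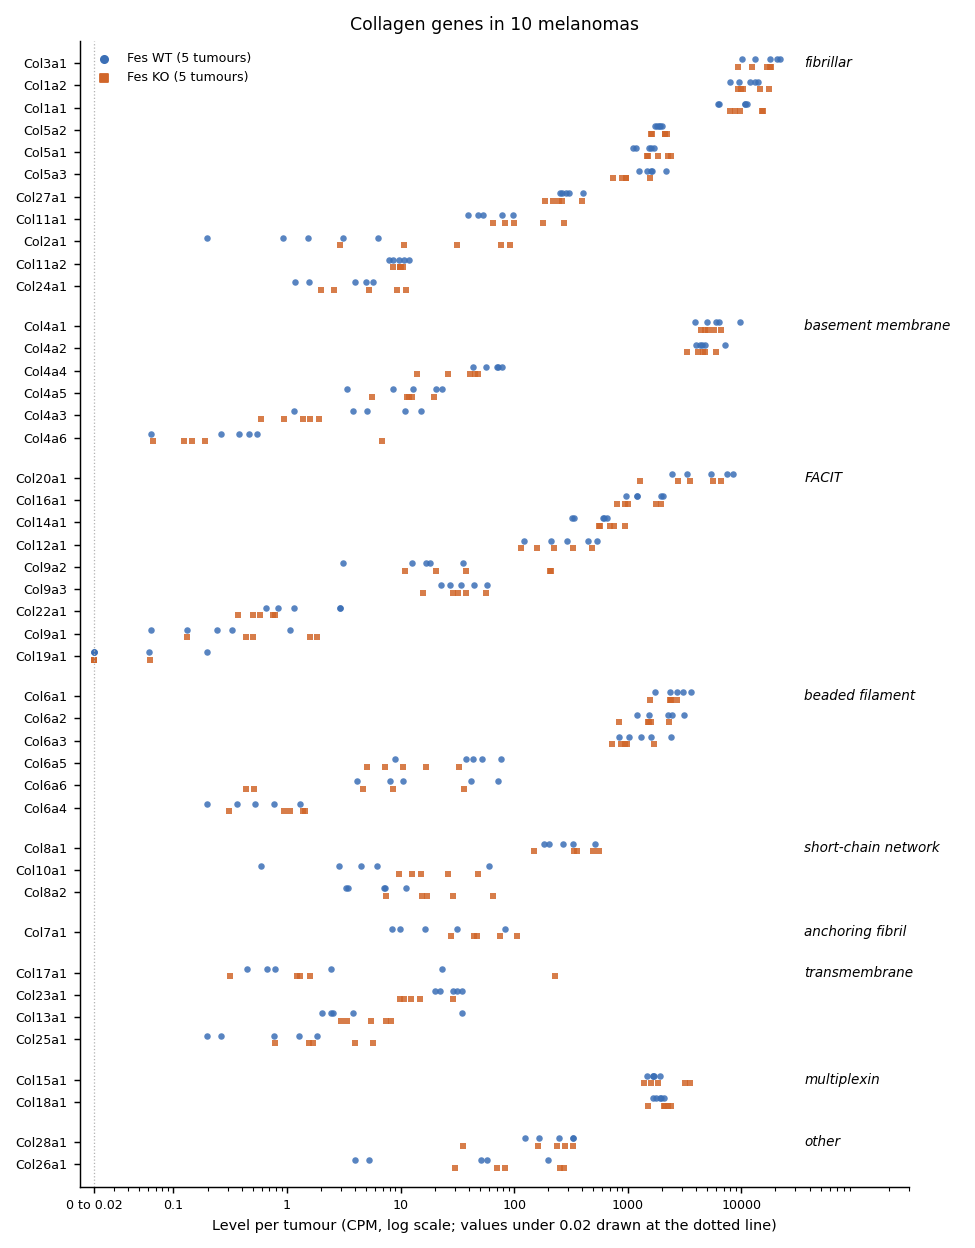
Level of each of the 44 collagen genes in each tumour (CPM on a log axis, values under 0.02 drawn at the dotted line), Fes WT as circles and Fes KO as squares, grouped by class. The family spans from 0 counts for Col19a1 in most tumours to 21923 CPM for Col3a1 in Fes WT 1, and within a gene the groups overlap.

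Ratios between chains that assemble together, or lie in the same fibril, were compared as a description. The log2 count ratio of Col1a1 to Col1a2 was between -0.61 and 0.05, with a mean of -0.33 ± 0.18 in Fes WT and -0.13 ± 0.12 in Fes KO. Its SD over the 10 tumours, 0.18, was below the SD of the log2 level of either gene, 0.45 and 0.35. The ratio of Col6a1 to Col6a2 was 0.40 ± 0.17 in Fes WT and 0.61 ± 0.25 in Fes KO, and that of Col5a1 to Col5a2 was -0.42 ± 0.28 and -0.05 ± 0.15. The ratio of Col3a1 to Col1a1, which form separate molecules in shared fibrils, was 0.87 ± 0.20 in Fes WT and 0.40 ± 0.39 in Fes KO. Every one of the 10 ratios examined overlapped between the groups, and none was tested.

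Collagen chains need a set of enzymes and chaperones before secretion and are trimmed and crosslinked outside the cell. None of the 41 tested genes of 44 in 7 lists of these steps and of collagen receptors passed the edgeR test. Only 0.175% of all genes passed it, so the absence of calls is no result about these lists. An unadjusted p below 0.05 was found for 2 (4.88%), against 9.62% of all genes. Their median log2 fold change was 0.02. Adamts14, a protease that removes the amino-terminal propeptide of fibrillar collagens, was at 16.1, 45.8, 22.4, 24.0 and 34.5 CPM in Fes WT 1 to 5 and at 62.5, 39.0, 89.1, 62.4 and 98.4 CPM in Fes KO 1 to 5. Apart from Fes KO 2, each Fes KO tumour lay above every Fes WT tumour, and the log2 fold change was 1.30 (SE 0.32, unadjusted p = 0.00203, adjusted p = 0.209). DESeq2 called it. In the same list Bmp1, which removes the carboxy-terminal propeptide, had -0.11 (SE 0.14), its enhancer Pcolce -0.16 (SE 0.20) and Adamts3 0.30 (SE 0.31).

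P4ha2, a catalytic subunit of prolyl 4-hydroxylase, was at 56.8, 71.4, 86.6, 43.1 and 58.8 CPM in Fes WT 1 to 5 and at 53.0, 58.9, 33.3, 41.4 and 43.3 CPM in Fes KO 1 to 5, and its log2 fold change was -0.46 (SE 0.20, unadjusted p = 0.0451, adjusted p = 0.508). The other subunits had log2 fold changes of -0.07 for P4ha1, 0.42 for P4ha3 and 0.02 for P4hb. Of the prolyl 3-hydroxylation genes, P3h1 had 0.19, P3h3 0.06 and Crtap -0.15. Of the lysyl hydroxylation and glycosylation genes, Plod1 had -0.05, Plod2 0.27, Plod3 -0.04 and Colgalt1 0.13. Serpinh1, the collagen-specific chaperone, was at 1503 ± 270 CPM in Fes WT and 1668 ± 288 CPM in Fes KO, with a log2 fold change of 0.15 (SE 0.17), next to 0.19 for Fkbp10 and 0.32 for Fkbp14. Lox, which starts crosslinking by oxidising lysines, had -0.82 (SE 0.48), Loxl1 -0.31 and Loxl2 0.05. Among the receptors, Ddr2, a kinase bound by fibrillar collagen, had -0.38 (SE 0.19), the integrin subunits Itga10 and Itgb1 0.67 and 0.02, and the endocytic receptor Mrc2 0.01. Tll2 and Gp6 were too low for the test. Mia2 is listed at 0 in every tumour, and its identifier had no gene model in GENCODE M21.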

How the data were processed

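Total RNA of 10 melanomas, 5 Fes KO and 5 Fes WT as the sample titles name them, was sequenced. The authors deposited raw counts of reads per gene and log2 values of the same genes. The latter were recovered from the former as log2(count / size factor + 1), to within 6.6e-11. Per the submitters' processing notes, the tools were FastQC, STAR 2.51b and Subread 1.4.6, and the builds mm10 and GRCm38. The strand setting was not given in the sources used here. How a read that fits several similar genes was counted is also not given, which could shift the counts of members with overlapping neighbours.

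Counts were tested in R 4.3.3 with edgeR 4.0.16 (TMM normalization, filterByExpr with the group, quasi-likelihood fit, 2-sided) over 14816 genes, with Benjamini-Hochberg adjustment over all of them and a threshold of 0.05. Levels are CPM with TMM library sizes, and log2 CPM uses a prior count of 2. Levels per kilobase use the transcript with the longest coding sequence in GENCODE M21. Chain ratios add 0.5 to each count. Total counts were 13226783 to 16599120 per tumour, and intervals are at 95%. Alternatives were other normalizations, DESeq2 1.42.0, limma 3.58.1 (voom with quality weights, and on the deposited log2 values), other filters, the replicate block, and leaving out tumours. Leaving out Fes KO 3 and Fes KO 5 was chosen after seeing the data. The fit was tested on simulated counts, where it missed many of the 2-fold changes put in and recovered most of the larger ones. Changes were put only into genes above a floor of counts, and each gene was drawn independently. The simulation therefore does not cover the lowest members or genes that shift together in a tumour.

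The members, lists and alternatives were chosen with earlier results of these data known. Values in every tumour are given for members past the threshold, the 6 most abundant fibrillar and basement membrane genes, the 2 most abundant of each other class, the 5 with the lowest p, and the 5 with the largest fold change among members whose mean reached 1 CPM in either group. From each processing list the 2 lowest in p and the 2 highest in level are named, with fold changes or group means unless their unadjusted p was below 0.05. No sample was left out of the main comparison. Proteins are not analysed here. One further part of the genotype that both groups share is not reported here.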

Additional observations from a re-analysis of the deposited data

Results flagged for a closer look

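In the 29 members described by tumour, each group of 5 was checked for a tumour far from the others, measured as its gap to the nearest other tumour over the range of the group on the log2 CPM scale. Of 58 such groups, 3 held such a tumour, where chance gives about 1 in 20. Col17a1 was at 228 CPM in Fes KO 2 where the rest of its group lay at 0.315 to 1.60 CPM. Col4a6 was at 6.80 CPM in the same tumour against 0.0654 to 0.189 CPM. Fes KO 2 is the tumour with the highest keratinocyte marker sum, 6172 CPM, and the part of that in both values was not tested. Col6a1 was at 1580 CPM in Fes KO 4, below the 2380 to 2700 CPM of the other Fes KO tumours.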

How the results depend on the processing

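The number of collagen genes called was 0 in the edgeR test and in all alternatives other than 2, with 3 in DESeq2 and 1 without the 3 Xist-expressing tumours, and the processing and receptor genes went from 0 to 1 in DESeq2. Over all genes the count of 26 became 270 in DESeq2, 115 in limma-voom, 4 with the replicate block, 64 without the Xist-expressing tumours, 9 without Fes KO 3 and Fes KO 5 and 10 to 54 when 1 tumour was left out. The titles number the replicates but do not say that equal numbers pair tumours. Same-numbered tumours had correlations of their deviations from the group means of 0.172, -0.378, -0.213, -0.105 and 0.137. Whether they are paired was not tested. The replicate block called no collagen gene, and neither did the fit without it. The median log2 fold change of the short-chain network class, 0.59, was 2.24 in limma-voom, 1.82 on the deposited log2 values, 1.80 with the replicate block, 2.23 without the Xist-expressing tumours and 0.17 to 1.90 when 1 tumour was left out. Without the Xist-expressing tumours the basement membrane median was -0.70 and the FACIT median -0.44. The transmembrane median, 0.46, was -1.18 without Fes KO 2 and Fes WT 3 and -1.08 to 1.31 when 1 tumour was left out. Without Fes KO 3 and Fes KO 5 the FACIT median was 0.11 and the multiplexin median 0.035. Directions turned for Col28a1 (0.047 in limma-voom, 0.24 without the Xist-expressing tumours), Col4a5 (0.021 on the deposited log2 values, 0.032 with the replicate block) and Col17a1 (-0.11 with the replicate block, -2.50 without Fes KO 2 and Fes WT 3). Without Fes KO 3 and Fes KO 5 they turned for Col1a1 (-0.045), Col1a2 (-0.20), Col5a2 (-0.073), Col8a1 (-0.087), Col10a1 (-0.24), Col15a1 (-0.060), Col26a1 (-0.073) and Col16a1 (0.030). When 1 tumour was left out, log2 fold changes that turned ran from -0.42 to 0.060 for Col28a1, -0.42 to 0.12 for Col4a5, -2.30 to 5.42 for Col17a1, -0.0205 to 0.22 for Col1a2, -0.34 to 0.0033 for Col4a1 and -0.23 to 0.050 for Col4a2. The cause of these shifts was not tested, and where tumours were left out their number was also smaller. The chain ratios moved by less than the spread between tumours in every alternative tried. Col4a6, Col9a1 and Col19a1 were too low to test.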
